A study of Mus musculus with 2 samples.

Results

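Neprilysin, the product of *Mme*, and 9 other enzymes that cut peptides at the cell surface or in the secretory route were compared between 2 regions of the mouse tongue. The 10 genes were *Mme*, *Ece1*, *Ece2*, *Ace*, *Anpep*, *Enpep*, *Dpp4*, *Fap*, *Cpm* and *Cpe*, each found by its symbol in 1 row of the 18498 rows of the expression table. In the same order, the table gives them the Entrez Gene numbers 17380, 230857, 107522, 11421, 16790, 13809, 13482, 14089, 70574 and 12876. They were selected on measured values, since the group was built around *Mme*, the gene with the highest ratio of RPKM among rows above 10 RPKM in the papillae and above 0 in the other region, so that the values given here are a description and no test was applied to them. In 7 of the 10, the annotation in the table names the plasma membrane as a location. The other 3, *Anpep*, *Ece2* and *Cpe*, are listed for other membranes, the Golgi apparatus or secretory granules. *Anpep* is nevertheless well known as a surface enzyme, whereas *Cpe* and *Ece2* act mainly inside the secretory pathway.

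The 2 libraries held poly(A) RNA of the circumvallate papillae (CvP), which carry the taste buds at the back of the tongue, and of tongue epithelium without papillae (Epi). Both came from male C57BL/6J mice of 12 to 30 weeks on a normal chow diet. RNA of at least 20 mice was pooled for each library, so there was no replicate, and each comparison is between these 2 libraries. Values are RPKM, which are reads per kilobase of exon model, scaled to the number of mapped reads.

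Surface peptidases end or change the action of peptide signals by cutting them close to their receptors. Neprilysin, the endothelin-converting enzymes, angiotensin-converting enzyme and the aminopeptidases A and N hold a zinc ion in a short sequence called HExxH, whereas *Dpp4* and *Fap* encode serine peptidases and *Cpm* and *Cpe* zinc carboxypeptidases. Their known substrates include tachykinins, enkephalins, natriuretic peptides, kinins, angiotensins, endothelins and incretins. Taste buds are known to use several peptide transmitters, and the nerve fibres that reach them carry tachykinins and calcitonin gene-related peptide.

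The codons of these active sites are shown because they encode the residues around the catalytic centre. They were read from the GENCODE M1 transcripts and match the NCBIM37 (mm9) genome base for base. Capitals mark the codons of the named sequence, 5′ to 3′ along the gene, and lower case marks neighbouring coding bases. Of 19854 genes with a coding transcript, 3.03% hold HExxH in frame at any place in the longest one, so the sequence alone does not define a peptidase.
Mme: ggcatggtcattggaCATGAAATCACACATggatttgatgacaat
Ece1: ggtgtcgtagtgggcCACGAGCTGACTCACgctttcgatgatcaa
Ece2: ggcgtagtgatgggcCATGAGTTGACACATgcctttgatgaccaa
Ace, first site: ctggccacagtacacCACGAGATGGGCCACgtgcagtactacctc
Ace, second site: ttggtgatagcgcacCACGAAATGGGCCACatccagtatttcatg
Anpep: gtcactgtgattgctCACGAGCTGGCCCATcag
Enpep: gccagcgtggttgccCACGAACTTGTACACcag

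The *Mme* site lies on the plus strand at chr3:63165928-63165972, in exon 18 of the 23 exons of transcript Mme-201. That of *Ece1* is at chr4:137513072-137513116 (plus strand) and that of *Ece2* at chr16:20643948-20643992 (plus strand), each in exon 17 of 20. *Ace* has a pair of sites, at chr11:105834209-105834253 in exon 8 and at chr11:105846393-105846437 in exon 20 of 25, both on the plus strand. The sites of *Anpep*, chr7:86984049-86984081 in exon 6 of 21, and *Enpep*, chr3:129012687-129012719 in exon 5 of 20, are on the minus strand. Of the 15 bases that encode HExxH, *Mme* shares 12 with *Ece2*, 9 with *Ece1* and 9 with *Enpep*. The shared bases did not follow the families, as *Ece1* shares 12 with *Anpep* and 11 with *Ece2*. The *Ace* sites share 14 of 15 with each other.

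*Dpp4* and *Fap* carry another sequence around the active serine, GWSYG, which 4 of the 19854 genes hold. It is split over exons 21 and 22 of 26 in both genes.
Dpp4: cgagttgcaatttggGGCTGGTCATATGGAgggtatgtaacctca
Fap: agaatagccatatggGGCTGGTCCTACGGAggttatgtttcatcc

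These genes lie on the minus strand of chromosome 2, with 88713 bases between them, and 13 of the 15 capital bases are the same. The *Dpp4* bases are at chr2:62186558-62186578 and chr2:62185951-62185974, and the *Fap* bases at chr2:62350443-62350463 and chr2:62342639-62342662. In the carboxypeptidases a histidine and a glutamate that hold zinc stand in the sequence HGxE, found in 4.64% of the genes and once in each of these 2 members.
Cpm: tacgtggcgaatatgCACGGAGATGAG
Cpe: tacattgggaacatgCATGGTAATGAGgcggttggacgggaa

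The *Cpm* bases are at chr10:117096895-117096921 (plus strand, exon 3 of 9) and the *Cpe* bases at chr8:67098286-67098327 (minus strand, exon 2 of 9). The 2 members share 9 of the 12 capital bases.

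Depth was read from the smallest step between values of the 163 rows with a length of 0.1 kb, where 1 read is worth 0.352 RPKM for the CvP and 0.358 for the Epi. This gave about 28373653 mapped reads for the CvP library and 27908511 for the Epi library. Read numbers for each gene followed from these depths. The 95% interval of a ratio (exact, Clopper-Pearson) reflects counting alone and not the spread between animals. Over the 10363 rows with an RPKM of at least 1 in both libraries the median CvP/Epi ratio was 1.31, and each ratio can be read against it. In whole tissue, fewer cells of a type and less RNA per cell cannot be told apart.

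Of the 10 peptidases, 9 had a higher RPKM in the CvP, 1 (*Fap*) was listed at the same value in both and none was lower. A CvP/Epi ratio above 1 was found in 75.0% of all rows. A CvP RPKM above 10 together with a ratio above 3 was found for *Mme* and *Ece1*, 2 of 10 against 2.35% of all rows, and for *Mme* alone once ratios were divided by the median ratio. With a minimum of 1 RPKM in the higher library, 5 of 10 were more than 3-fold higher in the CvP (*Mme*, *Enpep*, *Ace*, *Ece1* and *Cpm*), against 10.8% of all rows. After that division 3 of 10 remained above 3-fold, without *Ece1* and *Cpm*. None was more than 3-fold lower, against 1.33%. The *Mme* ratio chose the set, so these counts support nothing by themselves. On the log2 scale, with a pseudocount of 0.1, the 10 genes had a median CvP/Epi ratio of 1.28, and that over all rows was 0.49. Without *Mme* the median was 0.97.

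**Figure D1:**
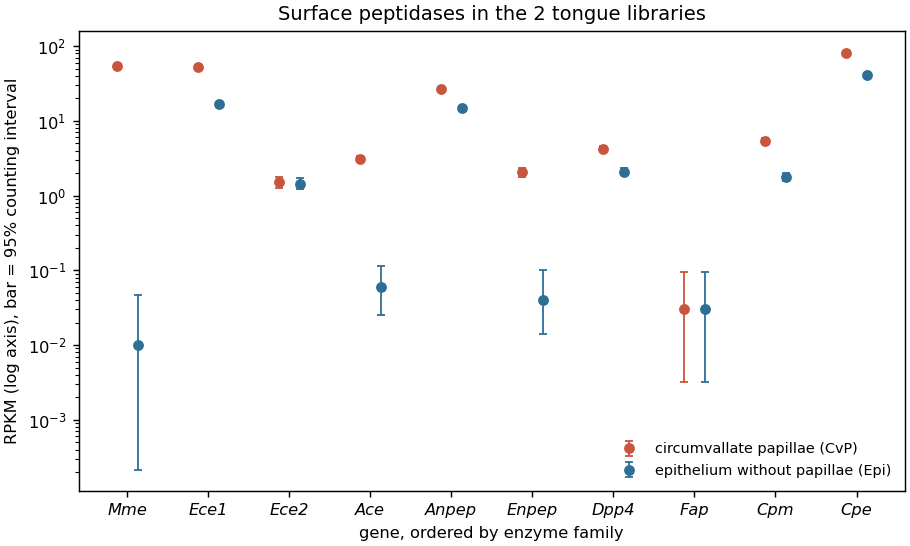
RPKM on a log axis of the 10 surface peptidases in the CvP library (red) and the Epi library (blue), with bars for the 95% exact Poisson counting interval. *Mme* stands at 55.1 in the CvP against 0.01 in the Epi, while *Cpe*, *Ece1* and *Anpep* are high in both and *Fap* is at 0.03 in both.

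*Mme* encodes neprilysin, a zinc endopeptidase anchored in the plasma membrane that degrades substance P, enkephalins, natriuretic peptides and amyloid beta. The gene lies on chromosome 3 from 63099794 to 63186153, and none of its exon bases are shared with another gene of the annotation. The CvP library held it at 55.1 RPKM and the Epi library at 0.01 RPKM, about 6630 reads and 1 read. The quotient of the listed values was 5511, with a counting interval from 1170.0 to 257616. Because the table rounds to 2 decimals, an Epi value listed as 0.01 can lie between 0.005 and 0.015, which alone moves the quotient between 3674 and 11022. The Epi level was thus at the limit of detection at this depth, and the size of the quotient is poorly fixed.

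In the CvP *Mme* was number 867 of all rows by RPKM, and in the Epi it was number 15816. Among the 5491 rows with a CvP RPKM above 10 and an Epi RPKM above 0 it had the highest ratio, which is how it was picked. The next ratios were 4237 for *Gnat3*, the gustducin alpha subunit of taste cells, and 3917 for *Nov*, a matrix-associated growth regulator. The counting intervals of these 3 ratios overlap. A further 25 rows with a CvP RPKM above 10 had an Epi RPKM of 0, so no ratio could be ranked for them.

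Other members of the neprilysin family gave little signal. *Phex*, an endopeptidase of bone, had 0.03 RPKM in the CvP against 0.01 in the Epi, about 5 reads and 2 reads. *Mmel1* and *Ecel1*, both neprilysin-like genes, were listed at 0 in the CvP and at 0.01 in the Epi. None of these reached 1 RPKM, unlike *Mme*, *Ece1* and *Ece2*, which belong to the same family. Among the 128 rows annotated with metallopeptidase activity, a group taken from the table after its values were seen, 3 had a higher CvP RPKM than *Mme*.

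The genes whose levels in the 2 libraries came nearest to those of *Mme*, by distance in log2(RPKM + 0.1), were *Trcg1*, *Gng13*, *Nov*, *Trpm5* and *Gzma*, at distances from 0.27 to 0.54. The likeness rests on 2 libraries and says nothing of the cells involved. *Trpm5*, the cation channel of taste cells, had 37.8 RPKM in the CvP against 0.01 in the Epi, and *Nov* 78.3 and 0.02. *Trcg1* (CvP RPKM 65.0), *Gng13* (77.4), a G protein gamma subunit of taste cells, and *Gzma* (38.2), a granule protease of cytotoxic lymphocytes, were all listed at 0 in the Epi. Against a floor of 3 reads in the Epi, *Trcg1* was at least 1632-fold higher, *Gng13* at least 518-fold higher and *Gzma* at least 312-fold higher in the CvP.

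**Figure D2:**
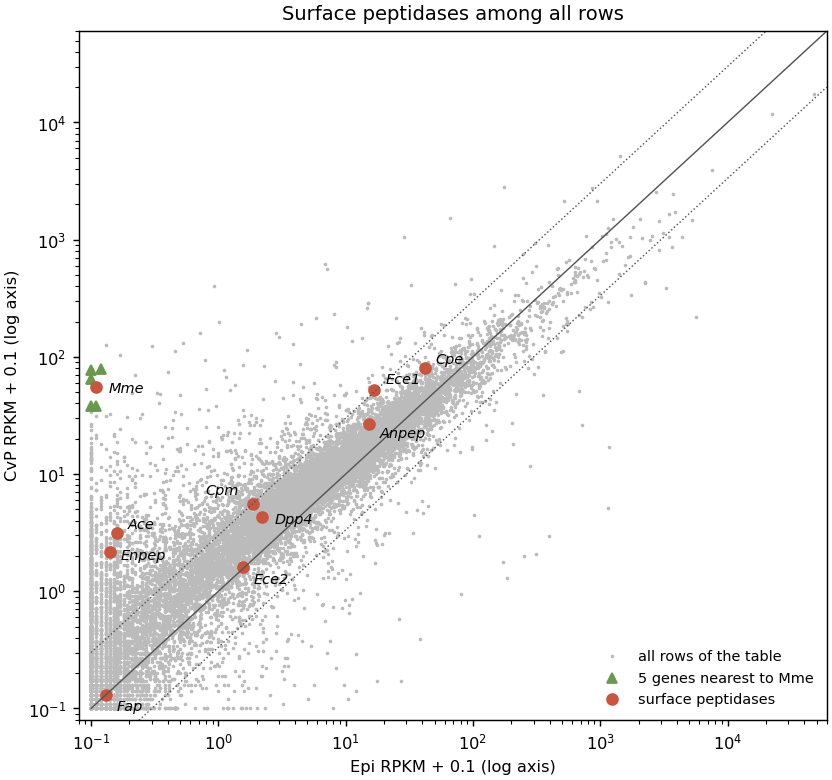
CvP RPKM against Epi RPKM, both with 0.1 added and on log axes, for all 18498 rows (grey), the 10 surface peptidases (red circles, named) and the 5 genes nearest to *Mme* (green triangles). The solid line marks equal values and the dotted lines a 3-fold difference on this scale. *Mme*, *Ace* and *Enpep* lie at the left edge, far above the line, whereas *Ece2* and *Fap* lie on it.

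The endothelin-converting enzymes cut inactive big endothelin to the active peptide. *Ece1* (chromosome 4, 137418152 to 137521144), the main converting enzyme of the cell surface, had 52.3 RPKM in the CvP against 16.7 in the Epi, with a ratio of 3.13 (95% interval 2.98 to 3.28), or 2.38 after division by the median ratio. Its listed CvP RPKM was just below that of *Mme*, with counting intervals that do not overlap (51.1 to 53.6 for *Ece1* and 53.8 to 56.5 for *Mme*). These intervals leave out any doubt about the gene lengths behind the RPKM, so the order of the pair is not settled. *Ece2* (chromosome 16, 20611674 to 20645988), which works in acidic vesicles, had 1.5 RPKM in the CvP against 1.45 in the Epi. The interval around its ratio of 1.03, 0.819 to 1.32, includes 1, so that no difference was detectable at this depth, and divided by the median ratio it turned to 0.788. The row of *Ece2* lists 5 RNA accessions, and its isoforms cannot be told apart.

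Of the endothelin genes, *Edn1*, the precursor of endothelin 1, had 5.87 RPKM in the CvP against 1.39 in the Epi, a ratio of 4.22 (3.35 to 5.36). The receptor *Ednra* was low in both libraries, at 0.25 and 0.09, and *Ednrb* was listed at 0 in the CvP against 0.07 in the Epi. *Edn2*, another endothelin gene with a row, was not among the precursors more than 3-fold higher in the CvP with an RPKM of at least 1 there. *Edn1*, *Edn2*, *Ednra* and *Ednrb* are named here for their tie to *Ece1*, after their values were seen. *Ece1* and *Edn1* were both higher in the CvP library, as were 75.0% of all rows, and both receptors were below 1 RPKM. A link between the enzyme and the peptide was not tested.

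*Ace* encodes angiotensin-converting enzyme, which removes dipeptides from angiotensin I and bradykinin. It lies on chromosome 11 from 105829259 to 105851278, and 295 of its exon bases are shared with the non-coding gene *Gm11651* on the opposite strand, whose reads could have been counted with it. The CvP library held *Ace* at 3.06 RPKM, about 426 reads, and the Epi library at 0.06 RPKM, about 8 reads. Its ratio was 51.0 (26.3 to 122), an interval wholly below that of *Mme*. Endothelial cells are known for *Ace*. Of their 6 markers with a row, 5 were higher in the CvP, where 75.0% of all rows had a ratio above 1. The summed RPKM of the 6 markers was 7.54 in the CvP against 0.60 in the Epi. Of these, *Vwf* was at 4.45 and 0.09, while the defining markers *Cdh5* (0.02 and 0.06) and *Pecam1* (0.28 and 0.12) were near 0 in both. The part of endothelium in the *Ace* values was not tested.

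Both membrane aminopeptidases take single residues from the start of peptides. *Enpep* (chromosome 3, 128972095 to 129035667) encodes aminopeptidase A, which turns angiotensin II into angiotensin III. It had 2.05 RPKM in the CvP against 0.04 in the Epi, about 243 and 5 reads, a ratio of 51.2 (20.2 to 149). *Anpep* (chromosome 7, 86966689 to 86987238) encodes aminopeptidase N, which acts on the next step and on enkephalins, and had 26.8 RPKM in the CvP against 15.04 in the Epi. Its ratio of 1.78 (1.68 to 1.90) was above the median ratio of 1.31 but far below that of *Enpep*. *Anpep* was the more abundant of the pair in both libraries.

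The dipeptidyl peptidases remove a dipeptide that ends in proline or alanine. *Dpp4* (chromosome 2, 62168130 to 62250288), the surface enzyme that inactivates incretins, had 4.22 RPKM in the CvP against 2.10 in the Epi, a ratio of 2.01 (1.75 to 2.31). An antisense non-coding gene, *Gm13561*, shares 232 of its exon bases. *Fap* (chromosome 2, 62339002 to 62412078), which is known from activated fibroblasts, was at 0.03 in both libraries, about 2 reads in each, and no fold was calculated. The fibroblast collagens *Col1a1*, *Col1a2* and *Col3a1* had RPKM values of 0.04 to 0.06 in the CvP and 0.17 to 0.25 in the Epi. Of the 10 fibroblast markers, 7 were lower in the CvP and 3 were higher, where 75.0% of all rows had a ratio above 1. In each direction 1 marker passed 3-fold with an RPKM of at least 1 in the higher library. Of all rows 10.8% did so higher in the CvP and 1.33% lower. Most of the summed RPKM of the 10, 31.8 in the CvP against 132 in the Epi, was *Dcn* (26.1 and 128), a small matrix proteoglycan.

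The last 2 members are carboxypeptidases that remove basic residues from the end of peptides. *Cpm* (chromosome 10, 117066556 to 117124408), which is held at the cell surface by a lipid anchor and acts on kinins, had 5.46 RPKM in the CvP against 1.76 in the Epi. The ratio was 3.10 (2.69 to 3.59), so that its interval, like that of *Ece1*, spans 3, and it was 2.36 after the same division. *Cpe* (chromosome 8, 67071349 to 67171837) trims peptide hormones in secretory granules. It had the highest listed RPKM of the 10 genes in both libraries, with 80.9 in the CvP against 41.6 in the Epi. Its ratio was 1.94 (1.85 to 2.04).

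**Figure D3:**
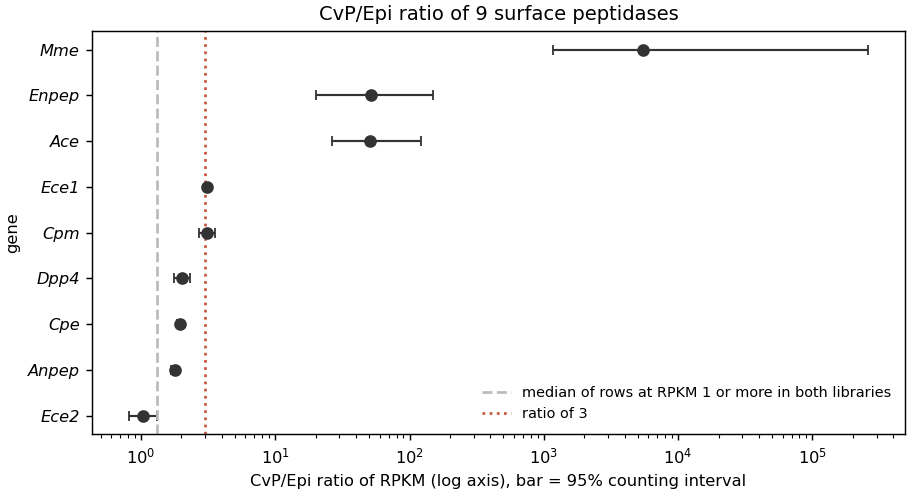
CvP/Epi ratio of RPKM on a log axis for the 9 surface peptidases above 3 reads in at least 1 library, with bars for the 95% exact counting interval. The dashed line marks the median ratio of 1.31 over rows with an RPKM of at least 1 in both libraries and the dotted line a ratio of 3. *Mme* stands alone at 5511, *Enpep* and *Ace* lie near 51, and the other 6 lie between 1.03 and 3.13.

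By level, the order in the CvP was *Cpe*, *Mme*, *Ece1*, *Anpep*, *Cpm*, *Dpp4*, *Ace*, *Enpep*, *Ece2* and *Fap*, and no neighbours in this order had overlapping counting intervals. In the Epi it was *Cpe*, *Ece1*, *Anpep*, *Dpp4*, *Cpm*, *Ece2*, *Ace*, *Enpep*, *Fap* and *Mme*. There the intervals of *Dpp4* and *Cpm*, of *Cpm* and *Ece2*, and of each neighbouring pair among the last 4 overlapped. These intervals leave out the gene length behind each RPKM, which is not stated. *Mme* is listed at 8.407 kb, while its longest coding transcript has 4.24 kb, and for *Cpe* these lengths are 2.511 and 2.087 kb. Places and shares could thus differ with another length. By listed RPKM, *Mme* held the second place in one library and the last in the other. It made up 23.8% of the summed RPKM of the 10 genes in the CvP and 0.0127% in the Epi, and the sum was 231 in the CvP against 78.8 in the Epi.

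*Mme*, *Ace*, *Enpep* and *Anpep* are 4 of the 15 rows that the table assigns to the renin-angiotensin system, a group chosen here after the values were seen. In this system renin cuts angiotensinogen to angiotensin I, *Ace* makes angiotensin II, and the other peptidases make or remove shorter forms. *Agt*, the angiotensinogen gene, had 10.5 RPKM in the CvP against 0.07 in the Epi, a ratio of 150 (52.3 to 496). In all, 4 of the 15 rows were more than 3-fold higher in the CvP with an RPKM of at least 1 there (*Agt*, *Mme*, *Ace* and *Enpep*). By the same rule 1 of the 15 was more than 3-fold lower. These shares, 26.7% and 6.67%, can be set beside 10.8% and 1.33% of all rows. The 4 include *Mme*, whose ratio chose the set.

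The other rows of the system did not follow one direction. *Thop1*, a soluble endopeptidase that also cuts angiotensin I, had 50.6 RPKM in the CvP against 142 in the Epi. The renin rows *Ren1* and *Ren2* were at 0.22 and 0.18 in the CvP and at 0 in the Epi. They are listed at nearly the same place on chromosome 1 (135247251 to 135256896 and 135247143 to 135256900). The same reads could thus have been counted in both rows, and the values are not separate measurements. The angiotensin receptor *Agtr1b* and the related receptor *Mas1* had 0.02 RPKM in the CvP against 0 in the Epi, at or below the floor of 3 reads.

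**Figure D4:**
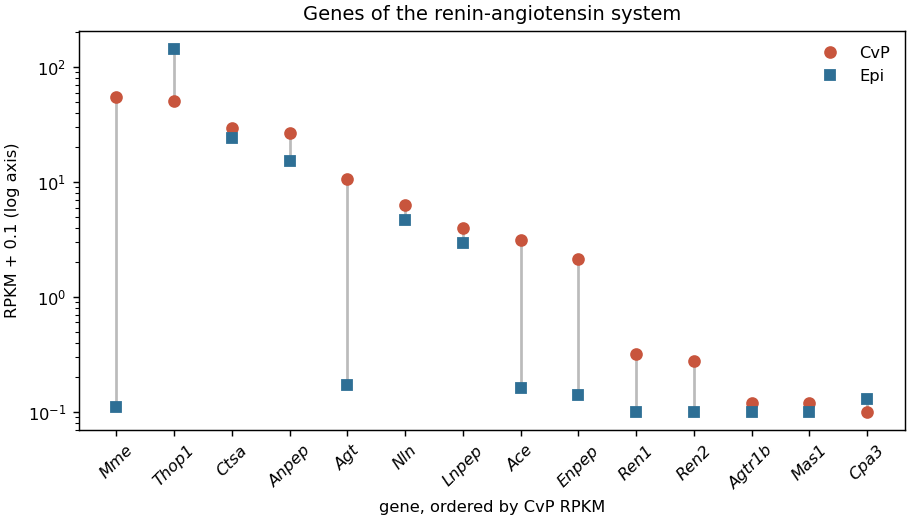
RPKM with 0.1 added, on a log axis, of rows assigned to the renin-angiotensin system (1 of the 15 is not drawn), in the CvP (red circles) and the Epi (blue squares), ordered by CvP level. *Mme*, *Agt*, *Ace* and *Enpep* are far higher in the CvP, while *Thop1* is higher in the Epi.

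Related peptidases outside the 10 genes were counted in the same way. Of 80 such genes with a row, from 8 lists, 10 were more than 3-fold higher in the CvP with an RPKM of at least 1 there and 1 was more than 3-fold lower, or 12.5% and 1.25%. These shares were near those of all rows (10.8% and 1.33%). The 8 other M1 aminopeptidases gave no such gene, and *Rnpep*, the highest of them in the CvP, had 35.3 RPKM there against 26.3 in the Epi. Nor did the 9 other dipeptidyl and prolyl peptidases, among which *Dpp3*, a soluble enzyme of the cytoplasm, had 51.1 and 83.5. Of the 17 other carboxypeptidases the table holds, *Pgcp* (now *Cpq*), a plasma glutamate carboxypeptidase, was the 1 such gene, with 4.11 in the CvP against 0.07 in the Epi, a ratio of 58.7 (21.2 to 204).

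Among 16 other surface metallopeptidases 4 were more than 3-fold higher in the CvP and 1 was more than 3-fold lower. These shares, 25.0% and 6.25%, can be set beside 10.8% and 1.33% of all rows. *Mmp15*, a membrane matrix metalloprotease, had 27.5 RPKM in the CvP against 4.74 in the Epi, a ratio of 5.79 (5.30 to 6.34). *Adam28*, a membrane disintegrin protease, followed with a ratio of 4.06 (3.71 to 4.44), while the intervals of *Mmp14* (3.01, 2.76 to 3.29) and *Adam8* (3.04, 2.52 to 3.68) span 3. The 7 dipeptidases and glutamyl transferases gave none, and *Ggt6* had the highest level of these at 21.1 in the CvP against 26.7 in the Epi. The insulin-degrading enzyme *Ide*, also known to cut amyloid beta, was the most abundant of the 4 soluble peptidases, with 139 in the CvP against 256 in the Epi.

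Surface serine peptidases gave 5 genes of 16, all higher in the CvP, or 31.2% against 10.8% of all rows. The row *9930032O22Rik/Tmprss11g* had 61.3 RPKM in the CvP against 3.78 in the Epi, a ratio of 16.2 (15.3 to 17.3). *Tmprss11bnl* had 176 and 39.0, and since the genes of this cluster resemble each other the split of reads between them is uncertain. *Tmprss2*, a transmembrane trypsin-like protease, had 11.4 and 1.34, and *Prss22*, a tryptase of epithelia, 13.9 and 3.66. *Hpn*, the gene of hepsin, was the lowest of the 5 at 1.58 and 0.17.

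*Cpe* works after the prohormone convertases. Of 10 genes of prohormone processing, 2 were more than 3-fold higher in the CvP, or 20.0% against 10.8% of all rows. *Pcsk1*, a convertase of secretory granules, had 10.7 RPKM in the CvP against 0.03 in the Epi, a ratio of 357 (110.3 to 3307), the Epi value being about 2 reads. *Scg5*, the chaperone of the related convertase, had 6.49 and 0.03, about 222 reads and 1 read. That convertase, *Pcsk2*, was at 0.02 and 0.01. *Pam*, which amidates peptides after *Cpe* has acted, had 20.2 and 10.4, a ratio of 1.94 (1.81 to 2.09) that overlaps the interval of *Cpe*. *Cpe* and *Pam* were thus well expressed in both libraries, whereas *Pcsk1* and *Scg5* were near the limit of detection in the Epi.

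Of 33 listed precursors of peptides that these enzymes cut, 23 had a row, and 5 were more than 3-fold higher in the CvP and 1 lower. These shares, 21.7% and 4.35%, can be set beside 10.8% and 1.33% of all rows. *Calca*, the precursor of calcitonin and calcitonin gene-related peptide, had 10.7 RPKM in the CvP against 0 in the Epi, at least 98.6-fold higher against the floor of 3 reads. *Calcb*, its paralog, had 11.4 and 0.71, and reads of the pair could have been shared. *Nppb*, the precursor of the natriuretic peptide BNP and a neprilysin substrate, had 1.04 and 0.05, about 23 reads and 1 read. *Nmu*, the precursor of neuromedin U, was the gene that was lower, with 15.5 in the CvP against 78.5 in the Epi, a ratio of 0.197 (0.175 to 0.220). The tachykinin precursors *Tac1* and *Tac2* were not analysed here, and the enkephalin precursor *Penk* was at 0.45 and 0.61.

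Peptide receptors were mostly low. Of 43 listed receptor genes 35 had a row, and 11 reached an RPKM of 1 in either library. In the CvP 4 were more than 3-fold higher and 1 was more than 3-fold lower. These shares, 11.4% and 2.86%, can be set beside 10.8% and 1.33% of all rows. *Oprd1*, the delta opioid receptor for enkephalins, had 1.88 RPKM in the CvP against 0.02 in the Epi, about 214 and 2 reads, a ratio of 94 (28.8 to 875). *Npr2*, the receptor of the natriuretic peptide CNP, had 1.97 and 0.15, a ratio of 13.1 (7.96 to 24.5). The chemokine receptors *Cxcr7* (10.9 and 2.74) and *Cxcr4* (2.45 and 0.02) were the others. *Tacr3*, the neurokinin B receptor, was lower, at 0.06 in the CvP against 1.09 in the Epi, whereas *Tacr1*, the receptor of substance P, was at 0.57 and 0.

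A list of 11 genes for inhibitors and renin held 3 that were more than 3-fold higher in the CvP, or 27.3% against 10.8% of all rows. *Timp3*, a matrix-bound inhibitor of metalloproteases, had 14.1 RPKM in the CvP against 0.80 in the Epi, a ratio of 17.6 (14.4 to 21.5). *Lxn*, latexin, an inhibitor of carboxypeptidases, had 27.0 and 5.38, a ratio of 5.01 (4.24 to 5.95). *Timp1* had 1.15 and 0.04, about 29 reads and 1 read.

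**Figure D5:**
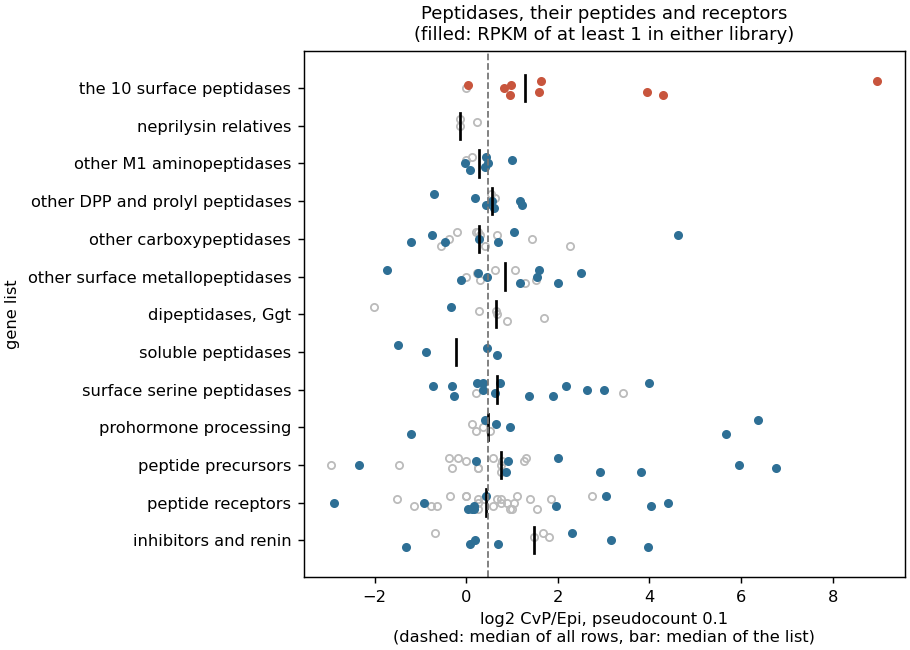
Log2 CvP/Epi ratio with a pseudocount of 0.1 for each gene of 13 lists, with 1 circle per gene, filled where the RPKM was at least 1 in either library. Black bars mark the list medians and the dashed line the median of all rows, 0.49. The 10 surface peptidases (red, median 1.28) reach furthest right only through *Mme*, whose ratio chose the set, and without it their median was 0.97. The list of inhibitors and renin had a higher median, 1.49. The lists of peptide precursors and receptors spread in both directions.

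The tissue labels can be read beside these values. Of all rows 75.0% had a ratio above 1, so counts such as 8 of 9 or 5 of 6 say little by themselves. With an RPKM of at least 1 in the higher library, 10.8% of all rows were more than 3-fold higher in the CvP. By the same rule 1.33% were more than 3-fold lower. All 12 taste cell markers were higher in the CvP, 11 of them more than 3-fold with an RPKM of at least 1, and all 8 markers of keratinized epithelium were higher in the Epi. *Mme* is also known from lymphoid and stromal cells. Of the 12 immune markers 11 were higher in the CvP, with a summed RPKM of 221 against 27.4, of which *Lyz2* made up 132 in the CvP. The B-cell marker *Cd79a* was at 0.03 in the CvP against 0 in the Epi. Skeletal muscle markers (8 of 8 higher in the Epi) and salivary gland markers (6 of 8 higher in the Epi) went the other way, with summed RPKM of 4.68 in the CvP against 52.1 and of 22.4 against 437. Of the 9 markers of glia and nerve 8 were higher in the CvP, although their sum was 19.9 against 49.7, because *Tubb3*, a neuronal tubulin, was at 4.58 in the CvP against 40.4 in the Epi. *Mbp*, a myelin protein, was their highest in the CvP. Of the 6 progenitor markers 5 were higher in the CvP, 4 of them more than 3-fold, and *Krt14* was more than 3-fold lower, at 295 against 1140. Their sum was 1928 against 2432, mostly *Krt14* and *Krt5*, the highest in the CvP at 1506 against 1271. The part of any of these cell types in the peptidase values was not tested.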

How the data were processed

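Single-end reads were aligned by the authors to NCBI37/mm9 with Bowtie 0.12.7 (version from the submitters' processing notes), and they deposited RPKM values from ERANGE for each exon model, 1 library per tissue. Options for reads with several matches are not given in the sources used here. The deposited ratio column was not used, and ratios were recomputed from the RPKM. The kit was not stated to mark strand.

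To turn RPKM into reads, depth was multiplied by a gene length, either the row's own or that of its longest protein-coding GENCODE M1 transcript, whichever was shorter. Reads amplified by PCR are not independent molecules, so intervals and floors are for counting error only. With 1 pooled library per tissue, no test and no replicate check was possible. The members and gene lists were chosen with earlier results of these data known. Genes named were the members, the 2 rows next to *Mme* in ratio, up to 4 genes of each list past 3-fold (or its highest gene), the 5 genes nearest to *Mme* and the highest gene in the CvP of each cell type list. *Edn1*, *Edn2*, *Ednra*, *Ednrb*, *Nppb*, *Adam8*, *Hpn*, *Mmel1*, *Ecel1*, *Pcsk2*, *Pam*, *Penk*, *Tacr1*, *Tacr3*, *Tubb3* and *Krt14* were named after their values were seen. So were the other endothelial, fibroblast and B-cell markers and the renin-angiotensin rows. Alternatives were other minimum levels and ratios, pseudocounts of 0.1 and 1, division by the median ratio, a common sum and the listed length. Values of some genes of the lists are not reported here. Older symbols were matched by gene ID through a RefSeq table. Depth, interval and call steps were checked on simulated data. Python 3.11.15, numpy 2.4.6, pandas 2.3.3, scipy 1.17.1 and matplotlib 3.10.9 were used.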

Additional observations from a re-analysis of the deposited data

How the results depend on the processing

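No paired analysis was possible because a single RNA pool was sequenced for either tissue. No ratio above 3 fell below 1 under any alternative, but none of the alternatives was large enough to cause this, so it shows nothing. The peptidases above both limits (10 RPKM, ratio 3) were 2, and 5 or 4 at a minimum CvP RPKM of 1 or 3, and 1 (*Mme*) at a minimum ratio of 5 or after division by the median ratio. With both libraries rescaled to a common sum they were 3. Those more than 3-fold higher in the CvP, 5, became 3 with a pseudocount of 1 and 3 after division by the median ratio. With that pseudocount *Enpep* was at 2.93 and *Cpm* at 2.34, and after that division *Ece1* was at 2.38 and *Cpm* at 2.36, while *Ece2* turned from 1.03 to 0.788. No other member changed direction. The other peptidases, 10 higher and 1 lower, became 16 and 3 at a minimum ratio of 2, and 7 and 3 after division by the median ratio. The median log2 ratio of the members, 1.28, was 1.08 with a pseudocount of 1, 1.58 in the 9 members that reached 1 RPKM in the CvP or the Epi, 0.88 after division by the median ratio and 1.57 with both libraries rescaled to a common sum. The *Mme* ratio, 5511, was 502 with a pseudocount of 0.1 and 55.6 with a pseudocount of 1, because the pseudocount exceeds the Epi value. With reads taken from the listed length its interval was 1789 to 53391. Depth limits what can be said of *Fap*, of the receptors near 0 and of any Epi value under 3 reads.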
